A study of Mus musculus with 6 samples.

Results

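The LY6 family and *Thy1* surface antigens are represented here by 5 genes, *Ly6a*, *Ly6c1*, *Ly6c2*, *Ly6e* and *Thy1*, of the 23420 genes in the expression table. The set was chosen because *Ly6a* was lower with harmine than in controls, so the comparison of harmine with control is given below as a description with no test, and *Ly6a* is given without a test throughout. All 5 genes were found by symbol and all passed the filter on low counts, as did 10607 genes in all. Expression was measured by RNAseq in naive splenic CD4+CD62L+ T cells of Balb/c mice aged 12 weeks, purified by magnetic sorting and activated on plates with antibodies to CD3 and CD28. At 24 h the cultures received lentivirus with control (scramble) shRNA or *Dyrk1a* shRNA. After a further 24 h they were fed medium with IL-2, and part of the control shRNA cultures also received harmine at 3.7 µM, a plant alkaloid that inhibits DYRK1A, a kinase known to phosphorylate NFAT proteins. Cells were harvested 48 h later, which gave 2 libraries each with control shRNA (hereafter control), with control shRNA and harmine (hereafter harmine), and with *Dyrk1a* shRNA.

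No cytokine that drives T helper differentiation was added in any group, all 3 groups carried lentivirus, and the study lists several hairpins without a label saying which went into which library. Each library came from a whole transduced culture, so fewer cells carrying an antigen and less of its RNA per cell cannot be told apart. The labels do not say whether replicates came from separate mice or cultures, so p-values measure the spread between these libraries only, which may be technical. All 3 comparisons reuse the same libraries and are set side by side below, not used to support each other.

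LY6 proteins are small cell surface proteins whose fold is held by disulfide bonds, shared with the urokinase receptor, and most are tied to the outer membrane leaflet by a glycosylphosphatidylinositol (GPI) anchor in place of a membrane-spanning segment. *Ly6a* encodes Sca-1, known from blood stem cells and induced on activated T cells. *Ly6c1* and *Ly6c2* encode the near-identical forms of the Ly6C antigen, found on monocytes and on memory T cells. *Ly6e* encodes TSA-1 (Sca-2), an antigen of immature thymocytes, and *Thy1* encodes CD90, the classical pan-T cell antigen of the mouse, which has the same kind of anchor but an immunoglobulin domain. Transcription of *Ly6a*, the *Ly6c* genes and *Ly6e* is known to respond to interferons.

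On GRCm38, the same assembly as mm10, the LY6 members lie together on chromosome 15. *Ly6e* is at chr15:74955051-74959905 on the plus strand, and *Ly6a* at chr15:74994877-74998031, *Ly6c1* at chr15:75044018-75048830 and *Ly6c2* at chr15:75108158-75111970 are on the minus strand. *Thy1* lies apart, at chr9:44043384-44048579 on the plus strand. The chromosome 15 genes include close copies, which bears on how reads were shared out among them. *Ly6c1* and *Ly6c2* were identical at 384 of 393 aligned coding bases (97.7%), with a longest shared run of 188 bases, and *Ly6a* was 81.8% identical to *Ly6c1* and 52.3% to *Ly6e*. The first 90 coding bases of the 3 closest genes show this, and span an intron in the genome. In *Ly6c1* (chr15:75047450-75048511, minus strand) and *Ly6c2* (chr15:75110608-75111667, minus strand), capitals mark the 6 bases at which the pair differs, and in *Ly6a* (chr15:74996549-74997604, minus strand) the 4 bases that differ from *Ly6c1*.
Ly6c1: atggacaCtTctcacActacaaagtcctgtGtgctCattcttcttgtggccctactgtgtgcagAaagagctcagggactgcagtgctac
Ly6c2: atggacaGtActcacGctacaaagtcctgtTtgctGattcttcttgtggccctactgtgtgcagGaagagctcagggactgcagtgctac
Ly6a: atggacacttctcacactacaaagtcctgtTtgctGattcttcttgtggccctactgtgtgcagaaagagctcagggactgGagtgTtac

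Of all stretches of 50 bases in the annotated transcripts of *Ly6c1*, 21.5% also occurred in *Ly6c2* and 11.1% in *Ly6a*. For *Ly6a*, 15% of the stretches also occurred in *Ly6c1*, 2.39% in *Ly6i* and 0.231% in *Ly6c2*, while *Ly6e* and *Thy1* shared none with any other gene. RSEM divides reads that fit several genes by estimate, and the fractional counts of *Ly6a*, *Ly6c1* and *Ly6c2*, against the whole-number counts of *Ly6e* and *Thy1*, show that it did so here. The levels of *Ly6a*, *Ly6c1* and *Ly6c2* are therefore uncertain with respect to each other. The reference genome is that of C57BL/6 mice and the cells were Balb/c, which carries another haplotype of the *Ly6* region, and the effect of this on the counts was not tested.

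The promoter sequences of *Ly6c1* and *Ly6c2* (RefSeq, GRCm38.p6) are shown because RSEM assigned different levels to these near-identical genes. The 250 bases before the first listed start were at chr15:75048838-75049087 for *Ly6c1* and chr15:75111972-75112221 for *Ly6c2*, both on the minus strand, and 164 of 228 aligned bases were identical (71.9%), less than in the coding parts. Capitals mark the motifs found on the printed strand.
Ly6c1: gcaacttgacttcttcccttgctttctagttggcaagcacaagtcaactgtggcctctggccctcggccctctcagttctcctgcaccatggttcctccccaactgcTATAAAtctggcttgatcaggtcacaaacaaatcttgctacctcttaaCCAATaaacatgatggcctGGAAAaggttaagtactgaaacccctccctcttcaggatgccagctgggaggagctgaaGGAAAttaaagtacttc
Ly6c2: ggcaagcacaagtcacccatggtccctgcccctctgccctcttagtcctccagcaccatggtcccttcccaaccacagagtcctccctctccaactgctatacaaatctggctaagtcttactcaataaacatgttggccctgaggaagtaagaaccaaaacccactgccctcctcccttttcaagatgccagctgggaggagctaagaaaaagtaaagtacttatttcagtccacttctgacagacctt

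On both strands, *Ly6c1* held 2 matches to GGAAA, the core of NFAT sites, 1 to TATAAA and 1 to CCAAT, and *Ly6c2* held none of these letters in this window. The window of the other listed start of *Ly6c1* held 2 matches to GGAAA but none to TATAAA or CCAAT, so this contrast depends on the start used. Among 32851 promoters of this length in the same table, GGAAA occurred in 55.6%, TATAAA in 12.4% and CCAAT in 33.8%. Neither gene held TTCNNNGAA, the letters of gamma-activated sites (7.02% of promoters), the interferon regulatory factor motif, which is GAAA repeated after any pair of bases (2.98%), or GGGCGG (32.7%). These matches describe the letters only.

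The libraries held 1096345 to 3747648 counts, and the controls were the shallowest. Defining T cell markers were present, with *Cd3e* at 203 to 286 CPM (counts per 1000000 counts of a library after TMM scaling) and *Cd4* at 296 to 382 CPM over the 6 libraries. *Cd3g*, another, had log2 fold changes of -0.32 with harmine and -0.70 with *Dyrk1a* shRNA. Neither passed the edgeR quasi-likelihood test (adjusted p = 0.928 and 0.612 by Benjamini-Hochberg). In the same order, *Cd3e* was at 0.07 and 0.24 and *Cd4* at 0.06 and 0.12. *Cd3d* was at -0.04 and -0.20, *Cd5* at 0.28 and 0.08, and *Lat* at -0.31 and -0.24. *Dyrk1a* itself was at 58.4 and 82.7 CPM in controls, 74.8 and 77.6 with harmine, and 60.2 and 61.9 with *Dyrk1a* shRNA. The knockdown was therefore not evident in the RNA (log2 fold change -0.19, standard error 0.21, edgeR quasi-likelihood test, adjusted p = 0.835 by Benjamini-Hochberg across the genes tested), and protein was not measured here.

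*Ly6a*, the gene by which the set was chosen, was at 333 and 283 CPM in controls, 103 and 164 CPM with harmine, and 207 and 210 CPM with *Dyrk1a* shRNA. Both harmine libraries lay below both *Dyrk1a* shRNA libraries, which lay below both controls, so that the 3 groups did not overlap. The counts behind these values ranged from 335 to 711 per library. The mean level was 308 ± 35.7 CPM in controls, 134 ± 42.6 with harmine and 208 ± 2.17 with *Dyrk1a* shRNA (SD, n = 2 each). With harmine this was 2.31-fold lower than in controls, a log2 fold change of -1.21 with a 95% interval of -1.66 to -0.75. A lower fold change was found for 72 of the 10607 genes (0.679%), a place that follows in part from the choice of *Ly6a*. With *Dyrk1a* shRNA the log2 fold change was -0.57 (-1.02 to -0.12), 1.48-fold lower than in controls. In that comparison 821 genes (7.74%) had a lower one. Between treatments, *Ly6a* was higher with *Dyrk1a* shRNA than with harmine by 0.64 (0.19 to 1.08). None of these were tested, since *Ly6a* was chosen on these libraries.

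**Figure D1:**
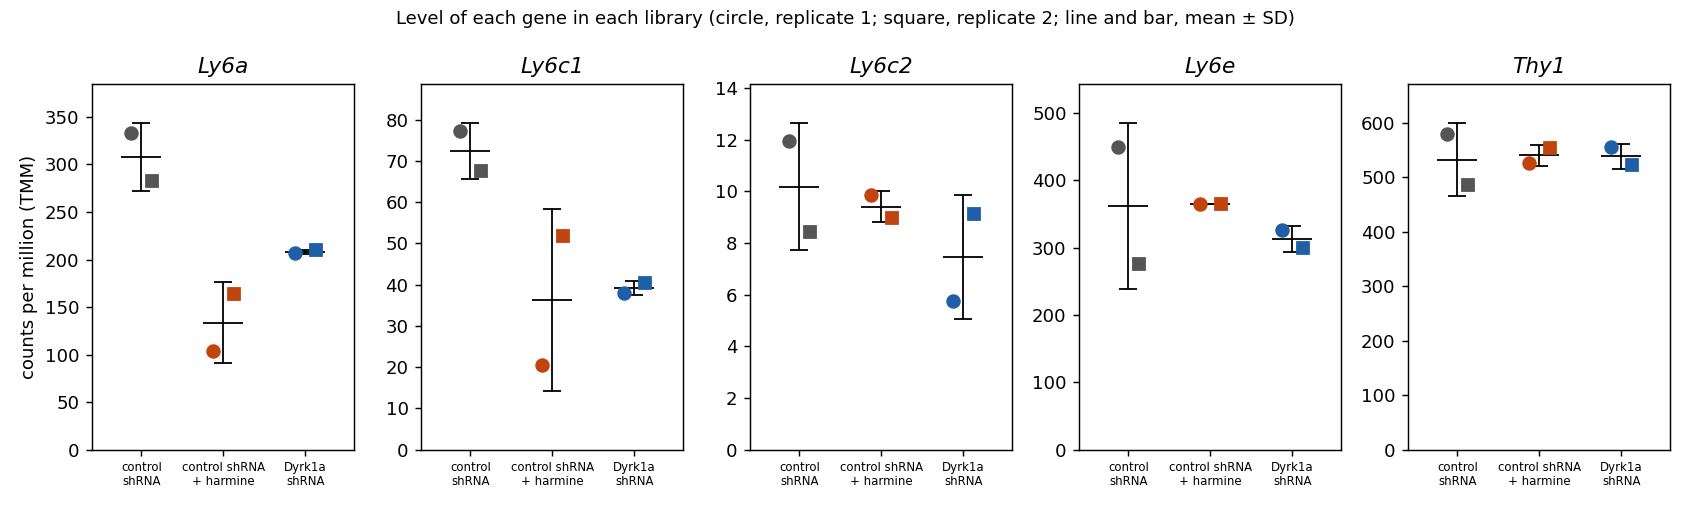
Level of each of the 5 genes in CPM (y axis, from 0, a scale of its own in each panel) in the 2 libraries of each group (x axis). Points are libraries, and lines with bars give the mean ± SD of n = 2. The groups are apart for *Ly6a* (333 and 283, 103 and 164, 207 and 210), while for *Thy1* all libraries lie between 485 and 581.

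The harmine replicates were themselves unlike for *Ly6a*, at a ratio of 1.58, whereas the *Dyrk1a* shRNA replicates were at 1.01 and the controls at 1.18. Without harmine replicate 1 the log2 fold change against control was -0.91, and without harmine replicate 2 it was -1.58, so its size, though not its direction, rested on which library was used. In the same way, the difference between *Dyrk1a* shRNA and harmine was 0.35 without harmine replicate 1 and 1.01 without harmine replicate 2. The difference between *Dyrk1a* shRNA and control depended on another choice, as it was -0.27 once trends with transcript length and GC content were removed from each library, a setting chosen after seeing the data.

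*Ly6c1* was at 77.2 and 67.5 CPM in controls, 20.6 and 51.8 CPM with harmine, and 37.9 and 40.4 CPM with *Dyrk1a* shRNA. All treated libraries lay below both controls, and the *Dyrk1a* shRNA libraries lay between those with harmine. The log2 fold change with harmine was -0.99 (-1.72 to -0.27), given without a test, and it was -0.49 without harmine replicate 1 and -1.82 without harmine replicate 2. This gene thus varied more between the harmine replicates (ratio 2.52) than *Ly6a* did. With *Dyrk1a* shRNA the log2 fold change was -0.89 (standard error 0.34), or 1.85-fold lower. This did not pass the edgeR test over all genes (unadjusted p = 0.0218, adjusted p = 0.612) nor DESeq2 (adjusted p = 0.9996), and the value was -0.56 with length and GC trends removed. The level of *Ly6c1* did not differ detectably between *Dyrk1a* shRNA and harmine (log2 fold change 0.11, 95% interval -0.61 to 0.82, edgeR adjusted p = 0.989), an interval that allows a difference in either direction.

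**Figure D2:**
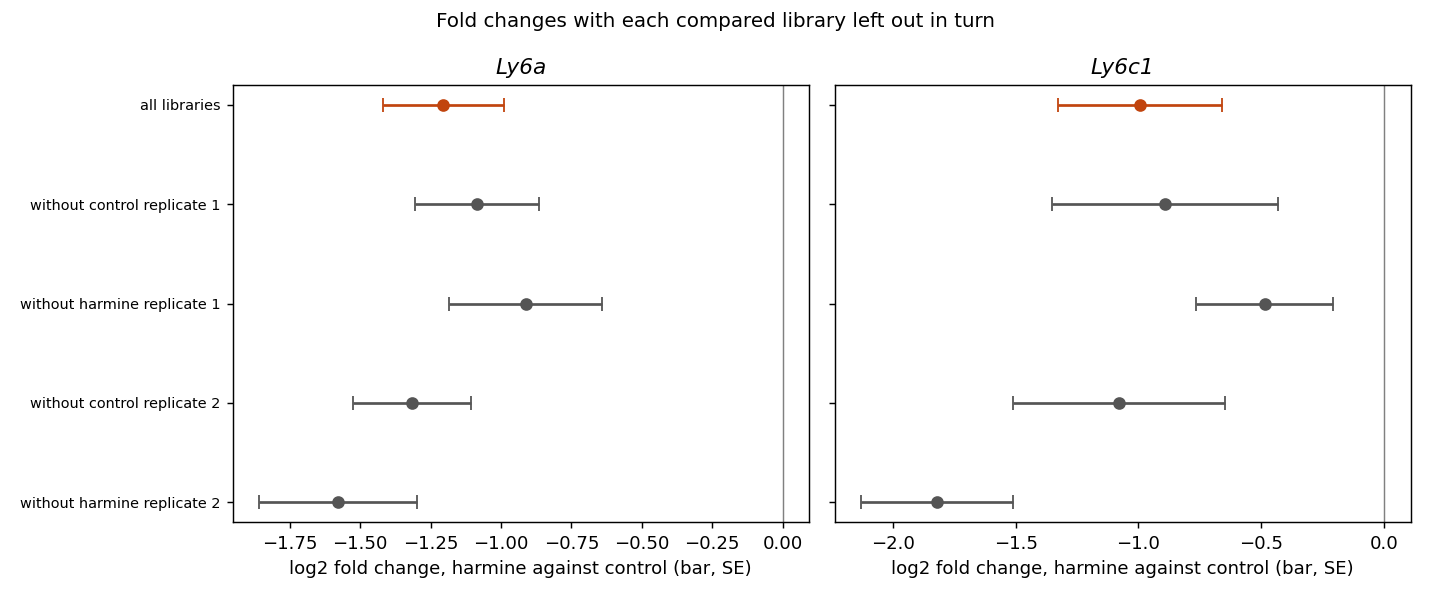
Log2 fold change of *Ly6a* (left) and *Ly6c1* (right) between harmine and control (x axis, each panel with its own scale) with all libraries and with each compared library left out (y axis). Bars are standard errors. All values lie below 0, from -0.91 to -1.58 for *Ly6a* and from -0.49 to -1.82 for *Ly6c1*, the ends being set by the harmine libraries.

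*Ly6c2* was far lower than *Ly6c1*, at 11.9 and 8.44 CPM in controls, 9.84 and 8.98 CPM with harmine, and 5.75 and 9.14 CPM with *Dyrk1a* shRNA. Its groups overlapped in every comparison, on 10.5 to 34.3 expected counts per library. The log2 fold change was -0.14 with harmine (-0.96 to 0.68), -0.45 with *Dyrk1a* shRNA (-1.30 to 0.40, edgeR adjusted p = 0.786) and -0.31 between the treatments (-1.05 to 0.44, edgeR adjusted p = 0.935). These counts are too low for more than a rough value. With *Dyrk1a* shRNA against control it was -0.16 without control replicate 1, -0.18 without *Dyrk1a* shRNA replicate 1 and -0.85 without *Dyrk1a* shRNA replicate 2, -1.01 after all libraries were thinned to the smallest and -0.07 with length and GC trends removed. Between the treatments it was -0.04 without *Dyrk1a* shRNA replicate 1 and -0.71 without *Dyrk1a* shRNA replicate 2. With harmine against control it was 0.15 without control replicate 1 and -0.34 without control replicate 2.

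The share of *Ly6c2* in the summed *Ly6c1* and *Ly6c2* counts was 13.4% and 11.1% in controls, 32.4% and 14.8% with harmine, and 13.2% and 18.5% with *Dyrk1a* shRNA. The high share came from harmine replicate 1, in which *Ly6c1* was lowest (95% Wilson interval 24.1% to 41.9%, against 10.8% to 19.9% in harmine replicate 2). These intervals cover counting error only and leave out any error in how RSEM split reads between the genes. Since RSEM set this split, the counts of both genes were also summed. The sum gave a log2 fold change of -0.85 (standard error 0.27) with harmine, not tested, and -0.83 (standard error 0.28) with *Dyrk1a* shRNA (edgeR adjusted p = 0.612). It gave 0.03 (-0.55 to 0.60) between the treatments (edgeR adjusted p = 0.999). The sum of *Ly6a*, *Ly6c1*, *Ly6c2* and *Ly6i*, a choice made after seeing the data, was lower by log2 fold changes of -1.12 with harmine and -0.61 with *Dyrk1a* shRNA. *Ly6a* makes up most of this sum, so it largely restates the value of *Ly6a*.

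*Ly6e* was at 449 and 275 CPM in controls, 365 and 365 CPM with harmine, and 327 and 299 CPM with *Dyrk1a* shRNA. The controls spanned all other libraries, with a ratio of 1.63 between them, and the 2 harmine libraries were level. The log2 fold change was 0.0084 with harmine (-0.45 to 0.47) and -0.22 with *Dyrk1a* shRNA (-0.68 to 0.25, edgeR adjusted p = 0.823). Both *Dyrk1a* shRNA libraries were below both harmine libraries, by a log2 fold change of -0.22 that did not pass the test (-0.68 to 0.23, edgeR adjusted p = 0.929). Control replicate 1 carried the value against control, since without it *Ly6e* was higher with *Dyrk1a* shRNA than in the remaining control by 0.18. With harmine the value was 0.40 without control replicate 1 and -0.30 without control replicate 2.

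*Thy1* varied least of the 5 genes over the 6 libraries, at 581 and 485 CPM in controls, 527 and 554 CPM with harmine, and 556 and 523 CPM with *Dyrk1a* shRNA. The treated libraries all fell between the controls. The log2 fold change was 0.020 with harmine (-0.42 to 0.46), 0.016 with *Dyrk1a* shRNA (-0.42 to 0.45, edgeR adjusted p = 0.993) and -0.0038 between the treatments (-0.44 to 0.43, edgeR adjusted p = 0.999). The intervals leave room for log2 fold changes of up to 0.46.

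**Figure D3:**
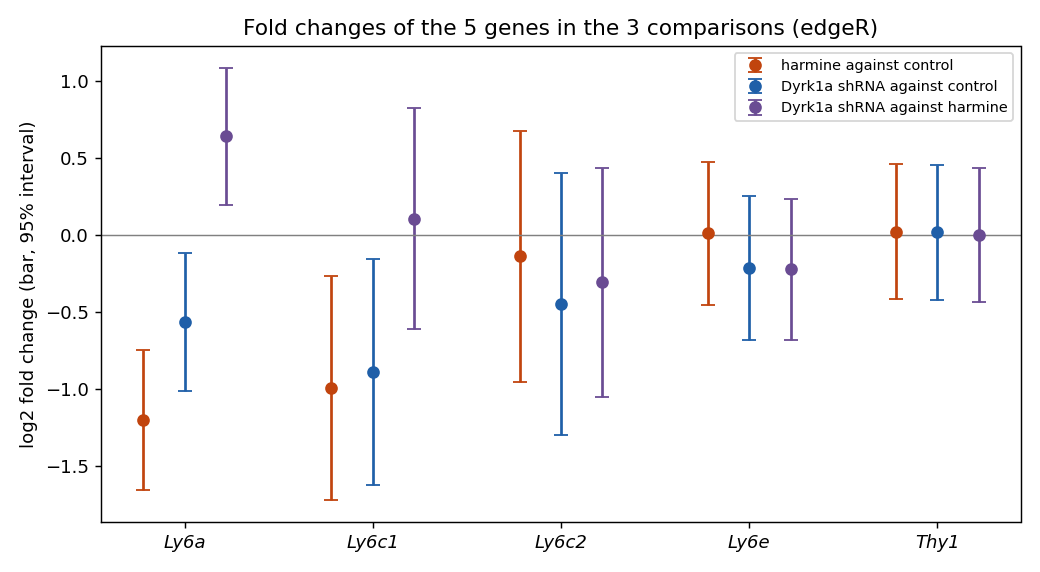
Log2 fold changes (y axis) of the 5 genes (x axis) for harmine against control, *Dyrk1a* shRNA against control, and *Dyrk1a* shRNA against harmine. Points are edgeR estimates and bars 95% intervals, and the comparisons share libraries. *Ly6a* and *Ly6c1* lie below 0 against control in both, at -1.21 and -0.99 with harmine and -0.57 and -0.89 with *Dyrk1a* shRNA, while *Thy1* lies within 0.020 of 0.

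In number, 2 of the 5 genes (*Ly6a* and *Ly6c1*) had both harmine libraries below both controls, where 15.9% of all genes tested did. These are again 2 of 5 for *Dyrk1a* shRNA below control, where 16.9% of all genes did. *Ly6a* alone had both *Dyrk1a* shRNA libraries above both harmine libraries, where 20.2% of all genes did. *Ly6e* alone had both below, a direction for which the share of all genes was not counted. Nothing is read from these counts, as they include *Ly6a* and rest on the control and harmine libraries on which the set was chosen. By edgeR, 0 of the 4 tested genes passed with *Dyrk1a* shRNA against control, where 0.0189% of all genes passed, and 1 of the 4 (*Ly6c1*) had an unadjusted p under 0.05, as did 7.69% of all genes. Between *Dyrk1a* shRNA and harmine, 0 of 4 passed and 0 had an unadjusted p under 0.05, where 0.00943% and 5.73% of all genes did. DESeq2 called 0 of 4 in both. With harmine against control, where the members were not tested, 0.00943% of all genes passed and 5.3% had an unadjusted p under 0.05.

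Ratios to *Thy1* within a library do not depend on how libraries are scaled. Counts of *Ly6a* per count of *Thy1* were 0.574 and 0.583 in controls, 0.196 and 0.295 with harmine, and 0.372 and 0.401 with *Dyrk1a* shRNA. The controls were thus closer to each other on this ratio than in CPM, and the groups again did not overlap. The 95% Wilson intervals, which cover counting error only, were 0.516 to 0.639 and 0.509 to 0.667 in controls, 0.175 to 0.220 and 0.270 to 0.323 with harmine, and 0.337 to 0.410 and 0.367 to 0.437 with *Dyrk1a* shRNA. They are given as a description, and those of the harmine replicates did not meet each other.

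Counts of *Ly6c1* per count of *Thy1* were 0.133 and 0.139 in controls, 0.0390 and 0.0934 with harmine, and 0.0683 and 0.0772 with *Dyrk1a* shRNA. Here too the controls were nearly level and highest. Counts of *Ly6e* per count of *Thy1* were 0.774 and 0.567 in controls, 0.693 and 0.659 with harmine, and 0.588 and 0.572 with *Dyrk1a* shRNA, so that the controls spanned the other groups on this scale as well. Counts of *Ly6c1* per count of *Ly6a* were 0.232 and 0.239 in controls, 0.199 and 0.316 with harmine, and 0.184 and 0.193 with *Dyrk1a* shRNA. The harmine libraries lay on both sides of the controls on this ratio, and both *Dyrk1a* shRNA libraries below them.

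**Figure D4:**
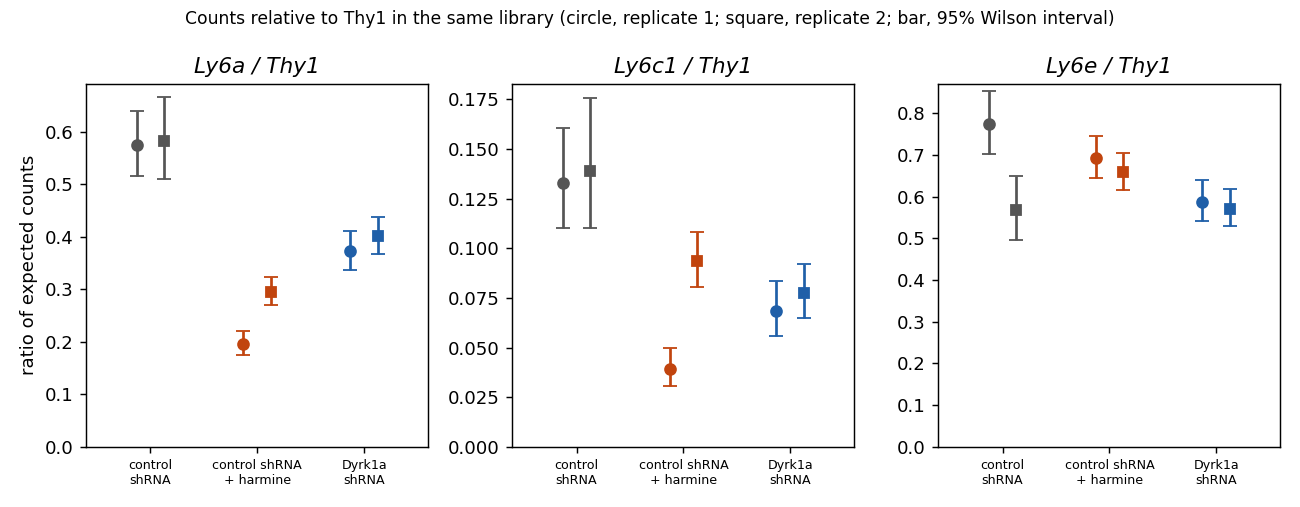
Expected counts of *Ly6a*, *Ly6c1* and *Ly6e* divided by those of *Thy1* in the same library (y axis, from 0, a scale of its own in each panel), by group (x axis). Points are libraries and bars 95% Wilson intervals, which cover counting error only. For *Ly6a* the controls are at 0.574 and 0.583, above *Dyrk1a* shRNA at 0.372 and 0.401 and harmine at 0.196 and 0.295.

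Levels of different genes were compared per kilobase of the longest annotated protein-coding transcript, which had 955 bases for *Ly6a* and 2281 for *Ly6e*. In controls, *Ly6a* (349 and 296 CPM per kb) and *Thy1* (335 and 280 CPM per kb) led and overlapped, followed by *Ly6e* (197 and 121), *Ly6c1* (91.5 and 80.0) and *Ly6c2* (14.5 and 10.3). With harmine, *Thy1* (304 and 319 CPM per kb) stood above the others, and *Ly6a* (108 and 171) and *Ly6e* (160 and 160) could not be placed in order. With *Dyrk1a* shRNA no neighbours in the order overlapped, with *Thy1* at 320 and 301 CPM per kb, *Ly6a* at 216 and 219, *Ly6e* at 143 and 131, *Ly6c1* at 44.9 and 47.8, and *Ly6c2* at 6.99 and 11.1. These orders describe the libraries, and no test was made of them. They rest on the lengths used, and which transcripts these cells made was not tested. In CPM, *Ly6e* stood above *Ly6a* with harmine (365 and 365 against 103 and 164) and with *Dyrk1a* shRNA (327 and 299 against 207 and 210). Over all libraries, 226 of the genes tested had a higher mean CPM than *Thy1*, 363 than *Ly6e*, 657 than *Ly6a*, 3713 than *Ly6c1* and 8669 than *Ly6c2*.

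The rest of the LY6 and uPAR superfamily gave almost no counts in these libraries. Of 42 other genes in the list, 34 were in the table, 23 of these were at 0 in every library, and the highest count of any in a library was 9. None had the 10 counts needed to be named or passed the filter, so no other member could be compared. The neighbours of *Ly6a* in the table also gave few counts. Of 46 other annotated genes that start within 500000 bases of it, 24 were in the table. No counts can be given for the rest, and where any reads from them went was not tested. Of those in the table, 21 are not among the 5 genes. Among these, 11 were at 0 throughout and 2 passed the filter. The 2 were *Them6*, at 12.1 to 17.6 CPM (log2 fold change -0.21 with harmine, edgeR adjusted p = 0.962, and -0.17 with *Dyrk1a* shRNA, edgeR adjusted p = 0.923), and *Jrk*, at 0.596 to 3.54 CPM. *Ly6i*, which shares sequence with *Ly6a*, was at 0.596 to 2.30 CPM.

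Because the 5 proteins need a GPI anchor, the genes that build and attach it were examined. Of 31 such genes tested, 14 lay above 0 and 17 below with harmine (median log2 fold change -0.09), and 18 above and 13 below with *Dyrk1a* shRNA (median 0.02), where the medians of all genes tested were -0.02 and -0.01. By edgeR and DESeq2, 0 passed in each comparison. With harmine 4 (3 higher, 1 lower) had an unadjusted p under 0.05 by edgeR, and with *Dyrk1a* shRNA 3 (1 higher, 2 lower). Between the 2 treatments 2 did (1 higher, 1 lower). In the same order, 5.3%, 7.69% and 5.73% of all genes did. The most abundant was *Gpaa1*, a subunit of the transamidase that attaches the anchor, at 46.4 to 69.4 CPM and a log2 fold change of 0.30 with harmine (edgeR adjusted p = 0.938). *Pigx*, *Pigq* and *Pigs*, which act in building or attaching the anchor, had log2 fold changes of -0.28, 0.27 and 0.13 with harmine and -0.28, 0.41 and 0.10 with *Dyrk1a* shRNA.

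Among 21 other GPI-anchored surface genes tested, 10 lay above and 11 below 0 with harmine (median -0.06), and 7 above and 14 below with *Dyrk1a* shRNA (median -0.15). With *H2-Q10* left out, a choice made after seeing the data, the 20 others were 10 above and 10 below with harmine (median -0.03) and 6 above and 14 below with *Dyrk1a* shRNA (median -0.20). None of the 21 passed by edgeR or DESeq2. In each of these comparisons 2 of the 21 had an unadjusted p under 0.05 by edgeR, where 5.3% and 7.69% of all genes did. The most abundant, *Cd52*, a short GPI-anchored peptide antigen of lymphocytes, was at 404 and 216 CPM in controls, 192 and 216 CPM with harmine, and 181 and 211 CPM with *Dyrk1a* shRNA. The first control stood apart and the other libraries were alike, with log2 fold changes of -0.61 (edgeR adjusted p = 0.905) and -0.67 (edgeR adjusted p = 0.612). *Folr4*, encoding the folate receptor family member JUNO, had log2 fold changes of 0.47 and 0.07, *Prnp*, encoding the prion protein, 0.0053 and -0.15, and *H2-Q10*, a class I gene whose product is known as secreted, -0.09 and 0.12. Of 36 T cell surface antigens without a GPI anchor, 19 lay above and 17 below 0 with harmine and 16 above and 20 below with *Dyrk1a* shRNA, with medians of 0.01 and -0.04. Of the 36, 3 and 3 had an unadjusted p under 0.05 by edgeR, where 5.3% and 7.69% of all genes did. Between *Dyrk1a* shRNA and harmine 14 lay above 0 and 22 below (median -0.06). Here 6 had an unadjusted p under 0.05 by edgeR (5 lower and 1 higher), where 5.73% of all genes did. None passed by edgeR or DESeq2 in any comparison. The 36 antigens include the abundant *Il2ra* and *Il2rb*, chains of the IL-2 receptor, at -0.0010 and 0.12 with harmine and -0.15 and 0.12 with *Dyrk1a* shRNA, and *Cd53* and *Cd47* at -0.01 and 0.0050 with harmine and -0.29 and -0.05 with *Dyrk1a* shRNA.

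Of 42 interferon response genes tested, 28 lay below and 14 above 0 with harmine (median log2 fold change -0.17), and again 28 below and 14 above with *Dyrk1a* shRNA (median -0.11), where 52.5% and 51.6% of all genes lay below 0. Between *Dyrk1a* shRNA and harmine 26 lay above 0 and 16 below (median 0.06). None passed by edgeR or DESeq2 in any comparison. In the same order, 3, 1 and 1 of the 42 had an unadjusted p under 0.05 by edgeR, all lower. The shares of all genes were 5.3%, 7.69% and 5.73%, in either direction. Abundant members had small values, with *Psmb8*, an inducible proteasome subunit, at log2 fold changes of -0.25 with harmine and -0.16 with *Dyrk1a* shRNA, the kinase gene *Jak2* at -0.02 and 0.0011, and *Samhd1* at 0.05 and -0.09.

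**Figure D5:**
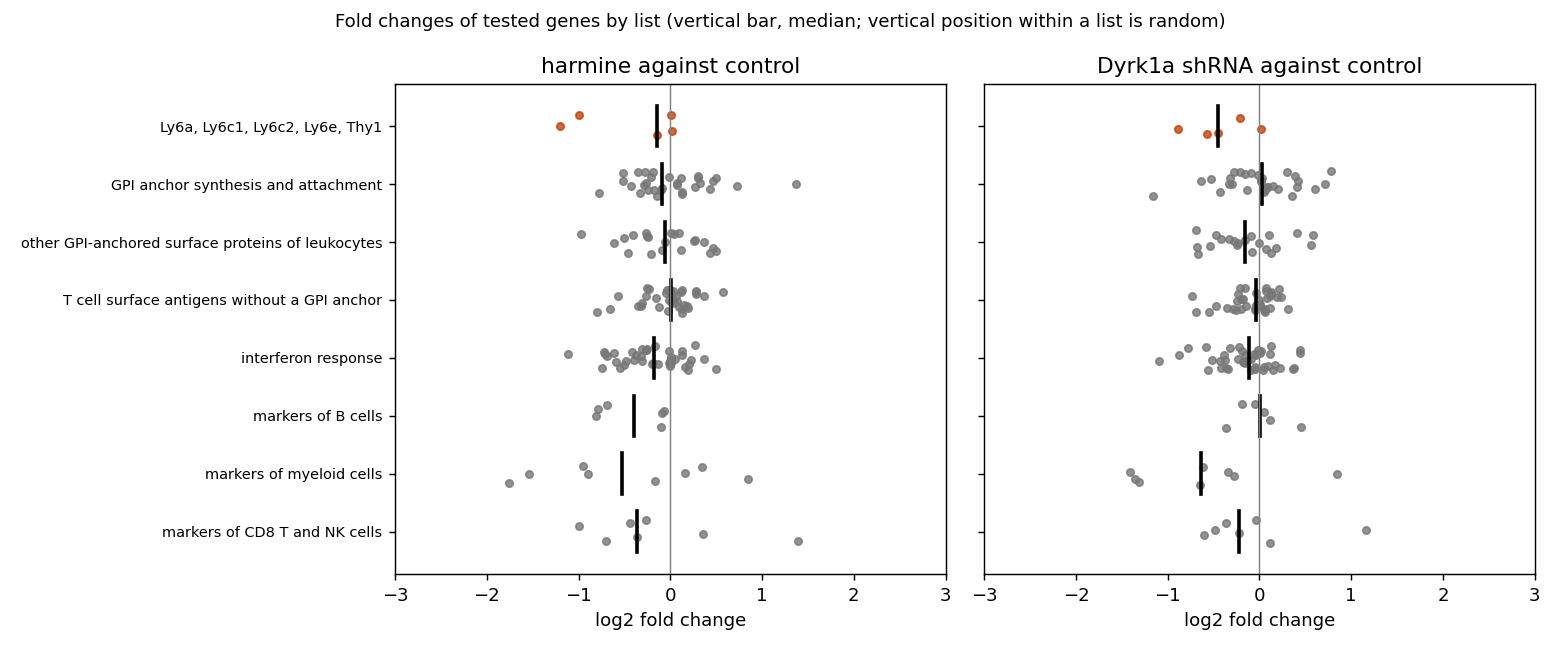
Log2 fold changes (x axis) of the genes tested in each list (y axis), for harmine against control (left) and *Dyrk1a* shRNA against control (right). Each point is a gene, thick bars are medians, the height of a point within a list is random, and the 5 genes were chosen on the comparison at left. The interferon list has a median of -0.17 with harmine and -0.11 with *Dyrk1a* shRNA, and *Ly6a* and *Ly6c1* are the points at -1.21 and -0.99, and at -0.57 and -0.89.

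LY6 antigens are also carried by other blood cells, so markers of cells that CD4+ sorting should remove were summed in each library. Summed B cell markers (11 genes in the table, none at 0 throughout) were at 42.1 to 52.3 CPM in controls, 34.3 to 36.2 with harmine and 42.1 to 47.8 with *Dyrk1a* shRNA. They were lower with harmine, as *Ly6a* was, and the 6 tested all had log2 fold changes below 0 (median -0.40). With *Dyrk1a* shRNA 3 of the 6 lay below 0. Summed markers of erythroid cells and platelets (11 genes, *Hba-a2* and *Hbb-b1* at 0) were at 26.2 to 34.5 CPM in controls, 19.3 to 19.4 with harmine and 19.5 to 25.4 with *Dyrk1a* shRNA, below control in both treatments. *Pf4* gave 23.2 of the 34.5 CPM in control replicate 1. Of the 3 tested, 2 lay below 0 in both comparisons with control (medians of the 3 -0.47 and -0.56), while *Itga2b* lay above (0.74 and 0.51). Markers of endothelial and stromal cells (15 genes, 6 at 0, among them *Cdh5* and *Col3a1*) were at 64.0 to 72.6, 61.4 to 61.8 and 68.7 to 72.4 CPM.

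Summed myeloid markers (18 genes, *Siglech* at 0) were at 90.3 to 149 CPM in controls, 110 to 113 with harmine and 84.0 to 92.0 with *Dyrk1a* shRNA. Of the 8 tested, 5 lay below 0 with harmine (median log2 fold change -0.53) and 7 with *Dyrk1a* shRNA (median -0.63), the direction of *Ly6a* and *Ly6c1*. Without control replicate 1 these medians were 0.33 and 0.22. For CD8 T and NK cell markers (14 genes, *Klra7*, *Klra8* and *Xcl1* at 0) the sums were 58.2 to 119, 58.4 to 72.7 and 72.8 to 75.2 CPM. Of the 7 tested, 5 lay below 0 in both comparisons with control (medians -0.36 and -0.23), and without control replicate 1 the medians were 0.22 and 0.37. Control replicate 1 was thus the highest library for both of these lists, as it was for all 5 genes. Without it, the log2 fold changes with harmine and with *Dyrk1a* shRNA were -1.09 and -0.45 for *Ly6a* and -0.89 and -0.79 for *Ly6c1*. Of the 27 marker genes tested, 0 passed by edgeR or DESeq2 in each comparison (5, 1 and 2 with harmine against control, *Dyrk1a* shRNA against control and *Dyrk1a* shRNA against harmine, at an unadjusted p under 0.05, against 5.3%, 7.69% and 5.73% of all genes), and the part of these cells in the levels of the 5 genes was not tested.

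By Pearson's r of log2 CPM over the 6 libraries, among 6639 other genes with a mean of at least 20 CPM, the genes most like *Ly6a* were *Smc1a*, a cohesin subunit (r = 0.98), *Lgals3bp*, encoding a secreted galectin-3 binding glycoprotein (0.97), *Hspd1*, the mitochondrial chaperonin (0.97), *Mak16* (0.97) and *Atp2a3*, a calcium pump of the endoplasmic reticulum (0.96). Of these *Lgals3bp* was at 33.3 and 33.8 CPM in controls, 14.6 and 23.0 with harmine, and 27.2 and 29.2 with *Dyrk1a* shRNA. Its groups stood in the order of those of *Ly6a*, and its harmine replicates were likewise unlike. This largely follows from the choice, as *Lgals3bp* was picked among 6639 genes for its likeness over these same 6 libraries. The fold changes of *Lgals3bp* were smaller (-0.82 and -0.25), and those of the other 4 genes lay between -0.22 and -0.34 with harmine. *Ly6c1* came 28th in likeness to *Ly6a* (r = 0.91), while *Thy1* (0.08), *Ly6c2* (0.11) and *Ly6e* (-0.0012) were unlike it. The list changed with the scaling. Of these 5 genes, 2 were again among the top 5 with scaling by library size, and 5 with a prior count of 5. By Spearman's rho *Mak16* was at 1 and the other 4 at 0.94. Genes can tie on rho over 6 libraries, so places by it are not compared.

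The genes most like *Ly6c1* were *Rbm5*, *Car5b* and *Osm* (r = 0.99, 0.99 and 0.98), those most like *Ly6c2* *Rbbp6*, *A430107P09Rik* and *Dclre1c* (0.98, 0.98 and 0.97), those most like *Ly6e* *H2afv*, *Higd1a* and *Mt1* (0.99 each), and those most like *Thy1* *Urod*, *Erdr1* and *Ptplb* (0.99, 0.98 and 0.98). These too changed with the scaling. With scaling by library size, 1, 2, 1 and 0 of the 3 genes stayed among the top 3 for *Ly6c1*, *Ly6c2*, *Ly6e* and *Thy1*. Spearman's rho over 6 libraries gives ties, so places by rho are not compared. *Rbm5* and *Car5b* had rho = 1 with *Ly6c1*, as *Urod* and *Erdr1* had with *Thy1*, the highest value possible. The others had rho of 0.71 to 0.94. *Ly6e* and *Thy1* resembled each other (r = 0.85), but this rested on the scaling, as r was 0.05 when libraries were scaled by size alone. The resemblance of *Ly6a* and *Ly6c1* did not, at 0.91 under both scalings (Spearman's rho 0.83). It is a description only, since it covers the libraries on which *Ly6a* was chosen. It also restates in part that both genes were lower in the treated libraries. The 2 genes share sequence over which RSEM divided reads, and the part of this in r was not tested. No library was left out of these values, all of which share the libraries' depths.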

How the data were processed

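PolyA RNA was primed with poly-dT and libraries were made by Nextera tagmentation and read on a MiSeq. For alignment to mm10 the authors used TopHat. The notes of the submitters on processing list TopHat2 2.0.13, RSEM and DESeq. The authors deposited expected counts per gene, estimated by RSEM over known transcripts, without normalization. For RSEM, neither version nor annotation release was given in the sources used here.

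The 5 genes and all gene lists were chosen with earlier results of these data known. Expected counts were rounded to whole numbers. All 6 libraries (3 groups of 2, no other columns) entered 1 robust quasi-likelihood fit in edgeR 4.0.16 under R 4.3.3, with TMM scaling, filterByExpr at a minimum count of 10 (10607 of 23420 genes), two-sided tests and Benjamini-Hochberg adjustment over all genes at a threshold of 0.05. Intervals are at 95%. Ratios have Wilson intervals (scipy 1.17.1), which cover counting error only. Named besides the 5 genes are up to 4 of the most abundant genes of a list, neighbours of *Ly6a* in the table, the genes most like each gene (log2 CPM with a prior count of 2), and *Dyrk1a*. A gene that this rule takes is not reported here by name. *Cd3d*, *Cd3e*, *Cd3g*, *Cd4*, *Cd5* and *Lat* were named to check the cell type. The fit was also run on simulated data, and the outcome is not reported here. The alternatives were library-size scaling, DESeq2 1.42.0 (size factors and Wald test), the replicate block, omission of the filter, a stricter minimum count of 50, each compared pair alone, thinning to the smallest library, summing similar genes and leaving out each library. Removal of length and GC trends (natural splines with 4 degrees of freedom) was chosen after seeing the data. Gene positions are from GENCODE M21 on GRCm38, neighbours and promoters from RefSeq GRCm38.p6, where 2 of the 5 genes had a promoter entry. The motif search covered GAS, IRF, NFAT core, TATA, CCAAT and GC box letters on both strands.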

Additional observations from a re-analysis of the deposited data

How the results depend on the processing

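Of the comparisons of the 5 genes, the log2 fold change of *Ly6a* between harmine and control kept its direction in every alternative and ranged from -1.58 to -0.91 when libraries were left out. The count of 0 tested genes that passed was the same in every alternative, for both tested comparisons. With the replicate block, it was also 0 in both, and the log2 fold changes of *Ly6a* were -1.23 with harmine and -0.58 with *Dyrk1a* shRNA. The block rests on shared numbers only, since the deviations of same-numbered libraries correlated at r = 0.12, 0.02 and 0.24 across 10607 genes, with 2 pairs. Small values changed sign. With *Dyrk1a* shRNA against control, *Ly6e* ranged from -0.52 to 0.18 and *Thy1* from -0.10 to 0.14 with libraries left out, and *Thy1* was -0.011 after thinning and -0.052 with length and GC trends removed. Between *Dyrk1a* shRNA and harmine, *Ly6c1* ranged from -0.40 to 0.93 and *Thy1* from -0.047 to 0.038 with libraries left out, *Thy1* was 0.012 when scaled by library size, and the sum of *Ly6c1* and *Ly6c2* in place of *Ly6c2* gave 0.028. The adjusted p of *Ly6c1* with *Dyrk1a* shRNA ranged from 0.0673 (no filter) to 0.9996 (DESeq2). The cause of these changes was not tested. Precision is limited by 2 libraries a group and by the lower depth of the controls, and a library left alone in its group is assumed to vary like the others.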
